A study of Mus musculus with 6 samples.

Results

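Sox7, Sox17 and Sox18 form the SoxF group of transcription factors, 3 of the 18193 genes measured on these arrays. They were taken by symbol, and 5 of the 34945 probe sets that carry 1 gene symbol belong to them: 2 to Sox7, 2 to Sox17 and 1 to Sox18. RNA was measured in CD31+/CD41-/CD45- cells, a fraction that the labels describe as enriched for endothelium, sorted by flow cytometry from mouse embryos of mixed background at embryonic day 9.5. The cells came freshly from the heart tube, from the caudal-half tissue or from the yolk sac, with 2 independent biological replicates and so 2 arrays per tissue. No treatment or targeted allele is named for any group, the sample descriptions carry the tag Wt, and how many embryos were pooled into a sample was not found in the labels.

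SoxF factors bind DNA through a high-mobility-group (HMG) box, which bends the helix at short AT-rich sites, and act through a C-terminal activation domain that in this group also contacts beta-catenin. In the embryo they are known from endothelium, where they act redundantly in the formation and branching of vessels. Sox17 is also a regulator of definitive endoderm, of arterial identity and of haemogenic endothelium. Sox18 is known for switching on Prox1 at the start of lymphatic development, and Sox7 for early haemogenic and vascular progenitors and for primitive endoderm.

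Levels below are the authors' RMA values, taken as the natural log of the deposited signals and read as log2 values, because the deposited signals reach 2172540 and a 16-bit scanner ends at 65535. The log base is inferred in this way and was not found in the labels. On the linear reading of the signals, each difference and its standard error grow by a factor of 1.44 and the p-values do not move, so fold sizes are given both ways. The gene-level tests used limma over all 6 arrays with Benjamini-Hochberg adjustment over the 18193 genes, and a gene was called at an adjusted p under 0.05. Where a gene had several probe sets, the one with the highest mean over the 6 arrays stood for it. Levels of different probe sets are not comparable with each other, so each is compared only with itself across tissues.

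The arrays of a tissue correlated at 0.981 to 0.986 over all probe sets other than controls, and arrays of different tissues at 0.946 to 0.969. As a check of the sort, all 20 genes of a general endothelial list read above the bacterial control probe sets (1.33 to 4.03) in each tissue. Ptprc, which encodes CD45, was within that range in each tissue. Itga2b, which encodes CD41, was above it in each and was called lower in heart tube cells (difference -1.41) and in caudal-half cells (difference -1.67) than in yolk sac cells, the former call being lost without heart tube replicate 1 (limma adjusted p = 0.0530). Pecam1, which encodes CD31, averaged 9.55 ± 0.08 (SD, n = 2) in heart tube cells, 9.95 ± 0.18 in caudal-half cells and 9.96 ± 0.19 in yolk sac cells, and was not called in any comparison.

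Sox17 and Sox18 were lower in the heart tube cells than in the cells of both other tissues, and Sox7 was not called in any comparison. In the heart tube against the caudal-half cells, 2 of the 3 genes were called lower, where 2.65% of all genes were called lower, 2.86% higher and 5.51% in either direction. Against the yolk sac the same 2 genes were called lower, where 6.67% of all genes were called lower, 5.14% higher and 11.8% in either direction. Both comparisons share the heart tube arrays. Of all genes, 271 (1.49%) were called lower in heart tube cells against both other tissues. Between caudal-half cells and yolk sac, 0 of the 3 genes were called by limma, with 2 of them (Sox7 and Sox18) at an unadjusted p under 0.05, where 4.22% of all genes were called higher, 4.86% lower and 9.08% in either direction. In bulk samples, fewer cells of a type and less RNA per cell cannot be told apart.

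Sox18 read 8.92 and 9.08 in the 2 heart tube arrays, 10.20 and 10.10 in the caudal-half arrays and 10.45 and 10.83 in the yolk sac arrays. The 3 tissues did not overlap, with the heart tube lowest and the yolk sac highest. The deposited signals behind these levels were 7475 and 8783 in heart tube cells, 24340 and 26823 in caudal-half cells and 34406 and 50427 in yolk sac cells. The means were 9.0 ± 0.11 (SD, n = 2), 10.15 ± 0.07 and 10.64 ± 0.27. The heart tube was lower than the yolk sac by 3.11-fold (5.14-fold on the linear reading), a difference in level of -1.64 (SE 0.19, limma adjusted p = 0.00366). It was lower than the caudal-half cells by 2.22-fold (3.15-fold on the linear reading), a difference of -1.15 (SE 0.19, limma adjusted p = 0.0234). The step between caudal-half cells and yolk sac, -0.49 with a 95% interval of -0.96 to -0.02, missed the threshold (limma adjusted p = 0.192), so the order of these neighbours was not settled. The difference from the yolk sac was called whichever array was left out (adjusted p 0.0103 to 0.0342). The difference from the caudal-half cells was lost without any 1 of the 4 heart tube and caudal-half arrays, with values of -1.23 to -1.07.

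Sox17 read 8.54 and 8.38 in the heart tube arrays, 10.004 and 9.55 in the caudal-half arrays and 9.82 and 9.58 in the yolk sac arrays. The heart tube arrays lay below the 4 others, among which the 2 tissues overlapped. The deposited signals were 5140 and 4379 in heart tube cells, 22113 and 14056 in caudal-half cells and 18321 and 14441 in yolk sac cells. The means were 8.46 ± 0.11 (SD, n = 2), 9.78 ± 0.32 and 9.70 ± 0.17. The heart tube was lower than the caudal-half cells by 2.48-fold (3.72-fold on the linear reading), a difference of -1.31 (SE 0.21, limma adjusted p = 0.0207). It was lower than the yolk sac by 2.35-fold (3.43-fold on the linear reading), a difference of -1.23 (SE 0.21, limma adjusted p = 0.0147). Caudal-half cells and yolk sac differed by 0.08 with a 95% interval of -0.43 to 0.60 (limma adjusted p = 0.876). The call against the caudal-half cells was lost without heart tube replicate 1, heart tube replicate 2 or caudal-half replicate 1 (values over all left-out arrays -1.54 to -1.09), and the call against the yolk sac without heart tube replicate 1, heart tube replicate 2 or yolk sac replicate 1 (values -1.35 to -1.11).

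The Sox17 value comes from probe set 1429177_x_at, whose x suffix marks probes that can also match other transcripts. The other Sox17 probe set, 1421657_a_at, read 5.65 and 5.12 in heart tube cells, 6.11 and 6.43 in caudal-half cells and 6.04 and 5.84 in yolk sac cells. Here too the heart tube arrays were the lowest, and no pair of tissues overlapped. Its differences had the same signs and were smaller, -0.89 against the caudal-half cells (SE 0.24, limma p adjusted over the probe sets with 1 symbol = 0.120) and -0.55 against the yolk sac (SE 0.24, adjusted p = 0.228). The call for Sox17 therefore rests on 1 of its 2 probe sets.

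Sox7 read 8.14 and 8.20 in the heart tube arrays, 8.17 and 8.47 in the caudal-half arrays and 7.91 and 7.71 in the yolk sac arrays. The yolk sac arrays were the lowest, and heart tube and caudal-half arrays overlapped. The means were 8.17 ± 0.04 (SD, n = 2), 8.32 ± 0.21 and 7.81 ± 0.14. The difference of the heart tube from the caudal-half cells was -0.15, with a 95% interval of -0.60 to 0.29 (limma adjusted p = 0.715). From the yolk sac it was 0.36, with an interval of -0.08 to 0.80 (limma adjusted p = 0.278), and caudal-half cells and yolk sac differed by 0.51, with an interval of 0.07 to 0.96 (limma adjusted p = 0.155). These intervals do not reach the called differences of Sox17 and Sox18 in the heart tube comparisons. Whether Sox7 differed from Sox17 or Sox18 in its response to tissue was not tested.

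The other Sox7 probe set, 1432495_at, read 5.91 and 6.04 in heart tube cells, 5.55 and 5.99 in caudal-half cells and 5.27 and 5.37 in yolk sac cells. The yolk sac was again lowest, while the heart tube mean was here above the caudal-half mean, by 0.20 (limma adjusted p over probe sets = 0.678), so the 2 probe sets gave opposite signs for that comparison. Against the yolk sac this probe set was higher by 0.66 in heart tube cells (adjusted p = 0.111) and by 0.45 in caudal-half cells (adjusted p = 0.269), and neither was called.

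**Figure D1:**
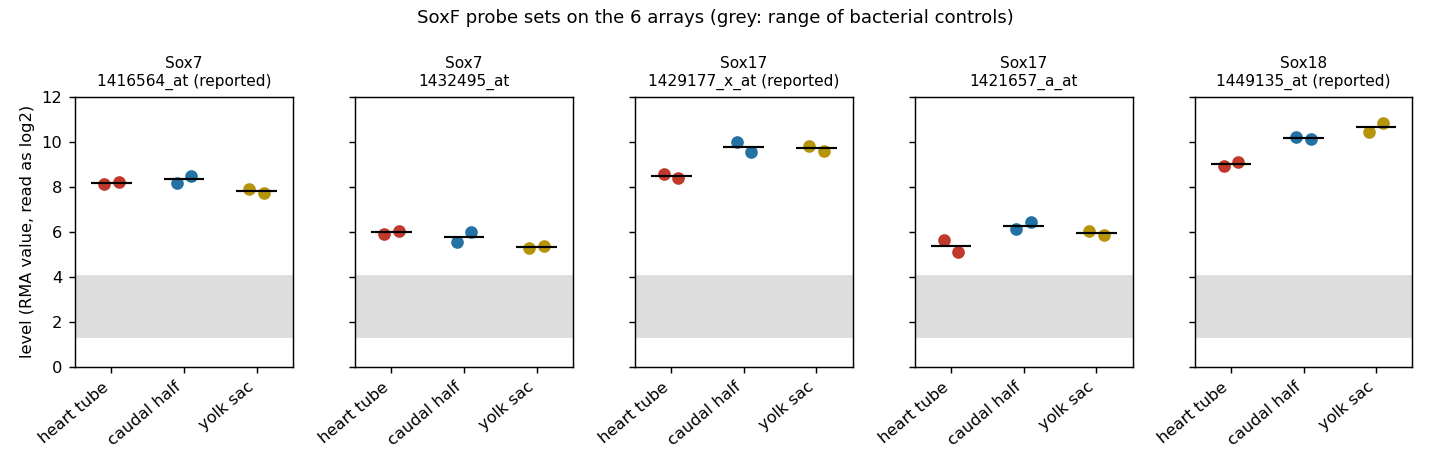
Level of each of the 5 SoxF probe sets (RMA value read as log2, vertical axis) in the 6 arrays, grouped by tissue; points are arrays, bars are the tissue means and the grey band is the range of the bacterial controls. The 2 heart tube arrays of Sox18 (8.92 and 9.08) and of the reported Sox17 probe set (8.54 and 8.38) lie below the other 4 arrays, while those of the reported Sox7 probe set (8.14 and 8.20) do not.

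The general endothelial genes moved with the heart tube as well. The mean level of the 20 genes was 8.99 and 9.07 in the heart tube arrays, 9.63 and 9.72 in the caudal-half arrays and 9.98 and 10.1 in the yolk sac arrays. Of the 20 genes, 7 were called lower and 1 higher in heart tube cells than in caudal-half cells, 10 lower and 0 higher than in yolk sac cells (1 to 4 and 5 to 9 lower when 1 array was left out). Genes of heart muscle were higher in heart tube cells: of 18 genes, 6 were called higher than in caudal-half cells and 8 higher than in yolk sac cells, 0 were called lower in either, and the list mean was 6.04 to 6.10 in heart tube cells, 4.60 to 4.65 in caudal-half cells and 4.16 to 4.31 in yolk sac cells. Nkx2-5, Ryr2 and Smpx of that list were within the bacterial range in heart tube cells. Of 14 mesenchymal genes, 7 were called higher and 1 lower in heart tube cells than in caudal-half cells, and 4 higher and 5 lower than in yolk sac cells, with list means of 6.73 to 6.74 in heart tube cells, 5.62 to 5.62 in caudal-half cells and 6.86 to 7.07 in yolk sac cells. The yolk sac carried visceral endoderm genes, with list means of 9.28 to 9.28 against 4.40 to 4.46 in heart tube cells and 4.67 to 4.71 in caudal-half cells. Of 12 genes of gut endoderm epithelium, 4 and 6 were called lower in heart tube cells than in caudal-half and yolk sac cells and 0 higher, of 13 blood progenitor genes 2 and 2 lower and 0 higher, and of 12 erythroid genes 4 and 5 lower and 1 higher in each. The part of these other cell types in the SoxF levels was not tested. Beside the list counts, 2.65% of all genes were called lower and 2.86% higher in heart tube cells than in caudal-half cells. Against yolk sac cells these shares were 6.67% and 5.14%.

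Set against endothelial genes on the same array, the differences of Sox17 and Sox18 between heart tube and both other tissues became smaller, while those of Sox7 moved upward by the same shift and turned positive against the caudal-half cells. Centring each array on its mean over the 20 endothelial genes moved every gene by 0.65 between heart tube and caudal-half cells, by 1.01 between heart tube and yolk sac and by 0.36 between caudal-half cells and yolk sac. The share of all genes called in either direction rose to 39.6%, 79.9% and 19.2%. In heart tube cells 6927 genes were then called higher and 279 lower than in caudal-half cells. Against the yolk sac 14069 were called higher and 460 lower. On that scale Sox18 was still called lower in heart tube cells than in yolk sac cells, at -0.63 (limma adjusted p = 0.0197), and was at -0.50 against the caudal-half cells (adjusted p = 0.0710). Sox17 was at -0.23 against the yolk sac (adjusted p = 0.416) and at -0.66 against the caudal-half cells (adjusted p = 0.0687). Sox7 was at 1.37 against the yolk sac (adjusted p = 0.00170) and at 0.50 against the caudal-half cells (adjusted p = 0.0729), where the median of all genes stood at 0.95 and 0.57 on the same scale.

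Single endothelial genes as reference gave intermediate values; these references were chosen after seeing the data. Relative to Pecam1, the gene of the sort, Sox18 was called lower in heart tube cells than in yolk sac cells, at -1.23 (limma adjusted p = 0.0129) and Sox17 was at -0.83 (adjusted p = 0.0572). Relative to Cdh5, which encodes the endothelial adherens junction cadherin, they were at -0.77 (adjusted p = 0.0121) and -0.36 (adjusted p = 0.167). Under each of the 3 references, Sox18 stayed called against the yolk sac. Relative to Pecam1, 8.66% of all genes were called in either direction between heart tube and caudal-half cells (1293 higher and 283 lower in heart tube cells). Between heart tube and yolk sac the share was 15.4% (2147 higher and 662 lower). Relative to Cdh5 these shares were 37.8% (6591 higher and 288 lower) and 71.8% (12528 higher and 543 lower). Against the caudal-half cells Sox17 was called relative to Cdh5 (-0.69, adjusted p = 0.0490) and not relative to Pecam1 (-0.91, adjusted p = 0.0566), and Sox18 was called under neither (-0.52, adjusted p = 0.0657, and -0.75, adjusted p = 0.150).

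**Figure D2:**
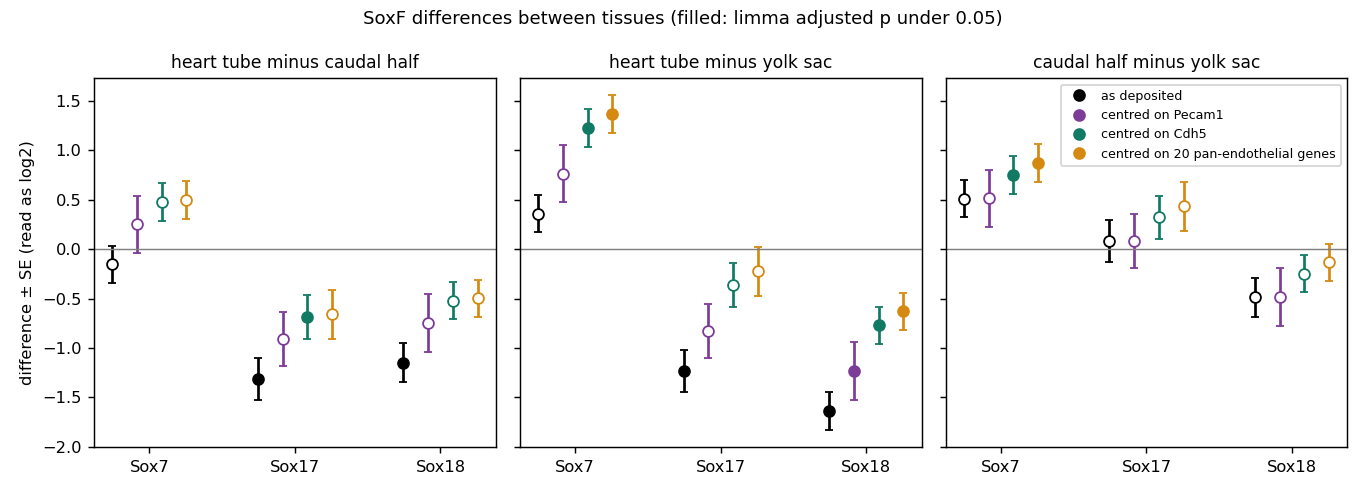
Difference in level of Sox7, Sox17 and Sox18 for each pair of tissues on the deposited scale and after centring each array on the endothelial list, on Pecam1 or on Cdh5; bars are the standard error and filled points passed the limma threshold. Sox18 in heart tube minus yolk sac stays below 0 on each scale (-1.64, -0.63, -1.23 and -0.77), while Sox7 in heart tube minus caudal-half cells crosses from -0.15 to 0.50, 0.25 and 0.47.

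The 14 genes listed as upstream signals, receptors, regulators and partners of SoxF factors were more often lower than higher in heart tube cells. Against the caudal-half cells 2 were called lower and 0 higher, beside 2.65% and 2.86% of all genes. The median difference was -0.53 (all genes -0.08). Against the yolk sac 6 were called lower and 2 higher, beside 6.67% and 5.14% of all genes, with a median of -0.58 (all genes -0.06). Flt4, the receptor for VEGF-C and a lymphatic and angiogenic receptor, read 10.35 and 10.45 in heart tube cells, 11.88 and 11.86 in caudal-half cells and 11.82 and 11.81 in yolk sac cells. Both heart tube arrays lay below the other 4, with differences of -1.47 (SE 0.16, limma adjusted p = 0.00440) and -1.42 (adjusted p = 0.00279), and it was the 1 gene of the list called lower against both tissues. Kdr, the main VEGF-A receptor of endothelium, was lower than in yolk sac cells (-1.34, limma adjusted p = 0.0209) and at -1.09 against the caudal-half cells (adjusted p = 0.0661). Its yolk sac call was lost without heart tube replicate 1 or yolk sac replicate 2 (adjusted p = 0.114 and 0.0872). Vegfc, which encodes the ligand VEGF-C, was called lower than in yolk sac cells too (-1.001, limma adjusted p = 0.0228), a call lost without heart tube replicate 1 or either yolk sac array. When 1 array at a time was left out, the list had 1 lower gene against the caudal-half cells and 1 to 5 against the yolk sac.

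Among the transcription factors of that list, Mef2c, an activator of vascular and muscle genes, was lower in heart tube cells than in caudal-half cells (-0.98, limma adjusted p = 0.0490), a call lost without any 1 of the 6 arrays. Erg and Fli1, ETS factors of endothelium, were lower in heart tube cells than in yolk sac cells, at -0.99 (limma adjusted p = 0.0278) and -0.78 (adjusted p = 0.0245). The Erg call was lost without heart tube replicate 1, either caudal-half array or either yolk sac array, and the Fli1 call without any 1 of the heart tube or yolk sac arrays. Etv2, the ETS factor that starts endothelial specification, ran the other way. It read 8.004 and 8.19 in heart tube cells, 7.92 and 7.31 in caudal-half cells and 5.46 and 3.93 in yolk sac cells. The difference between heart tube and yolk sac was 3.40 (limma adjusted p = 0.00726). The second yolk sac reading lay within the bacterial range, so that size is uncertain. Lef1, a DNA-binding partner of beta-catenin, also had its lowest levels in yolk sac cells, with 9.02 and 9.03 in heart tube cells, 9.89 and 9.64 in caudal-half cells and 6.79 and 5.09 there. Its heart tube difference of 3.09 from the yolk sac was called (limma adjusted p = 0.0117) and was lost without either heart tube array (adjusted p = 0.0672 and 0.0664). Ctnnb1, which encodes beta-catenin, read 12.59, 12.62 and 12.57 as tissue means and Rbpj, the DNA-binding factor of Notch signalling, 7.10, 7.19 and 6.40. Neither was called in any comparison. Tcf7l1, also of this list, ran opposite to Lef1, with means of 7.10 in heart tube, 7.40 in caudal-half and 8.63 in yolk sac cells. It was called lower in heart tube and in caudal-half cells than in yolk sac cells. The Tcf7l1 call between heart tube and yolk sac was lost without any 1 of the heart tube or yolk sac arrays. Its call between caudal-half cells and yolk sac was lost in the fit of these 2 tissues alone (-1.23, limma adjusted p = 0.0870). That call was also lost after quantile normalization (-1.22, limma adjusted p = 0.0578) and without any 1 array other than caudal-half replicate 1.

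Of 16 vascular genes that have been linked to SoxF factors, 5 were called lower and 1 higher in heart tube cells than in caudal-half cells, beside 2.65% of all genes lower and 2.86% higher, with a median difference of -0.34 (all genes -0.08). Against the yolk sac 8 were called lower and 3 higher, beside 6.67% and 5.14% of all genes, with a median of -0.50 (all genes -0.06). Between caudal-half cells and yolk sac 1 was called higher and 1 lower, beside 4.22% and 4.86% of all genes. When 1 array at a time was left out, the count of lower genes ranged from 1 to 4 against the caudal-half cells and from 2 to 7 against the yolk sac. The 5 genes called lower against both tissues, where 1.49% of all genes were, are Cldn5, Robo4, Dll4, Notch4 and Egfl7, and 3 of them (Cldn5, Robo4 and Egfl7) are also in the endothelial list whose mean was lower in heart tube cells. The list was chosen with earlier results of these data known.

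Cldn5, the tight junction protein of endothelium, read 6.40 and 7.14 in heart tube cells, 10.22 and 10.11 in caudal-half cells and 10.29 and 10.32 in yolk sac cells. The heart tube stood far below the other arrays, at differences of -3.40 (SE 0.26, limma adjusted p = 0.00131) and -3.54 (adjusted p = 0.000612). Robo4, an endothelial receptor that stabilises vessels, read 5.80 and 5.20, 7.94 and 7.69, and 8.14 and 8.59. Its heart tube arrays were again lowest, with differences of -2.31 (SE 0.27, limma adjusted p = 0.00629) and -2.87 (adjusted p = 0.00155), the former lost without caudal-half replicate 1 (adjusted p = 0.0521).

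Dll4, the Notch ligand of arterial and tip cells, read 5.16 and 5.56 in heart tube cells, 7.003 and 6.80 in caudal-half cells and 7.13 and 6.53 in yolk sac cells. Notch4, an endothelial Notch receptor, read 6.38 and 6.66, 7.91 and 7.71, and 7.78 and 7.83. In both genes the heart tube arrays lay below the other 4, among which the 2 tissues overlapped. The differences of Dll4 were -1.54 (limma adjusted p = 0.0232) and -1.47 (adjusted p = 0.0155), and those of Notch4 -1.29 (adjusted p = 0.0122) and -1.29 (adjusted p = 0.00688). The Dll4 call against the caudal-half cells was lost without any 1 of the 4 arrays compared, and that against the yolk sac without heart tube replicate 1 or yolk sac replicate 1. The Notch4 calls were lost without heart tube replicate 1, and against the caudal-half cells also without caudal-half replicate 1. Egfl7, a secreted endothelial factor, differed by -0.77 (limma adjusted p = 0.0499) and -0.86 (adjusted p = 0.0209), and lost the first call without any 1 of the 6 arrays and the second without any 1 of the heart tube or yolk sac arrays.

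Cdh5 and Gja4, which encodes an arterial gap junction protein, also had their lowest levels in both heart tube arrays. Cdh5 read 9.97 and 10.03 there, 10.64 and 10.62 in caudal-half cells and 10.85 and 10.88 in yolk sac cells, and Gja4 read 6.99 and 7.19, 7.49 and 7.63, and 7.77 and 7.86. They were called lower than in the yolk sac only (-0.87, limma adjusted p = 0.0166, and -0.72, adjusted p = 0.0421). The Cdh5 call was lost without any 1 of the heart tube or yolk sac arrays and the Gja4 call without any 1 of the 6 arrays. Notch1, another Notch receptor, had means of 10.4, 10.2 and 10.3 in heart tube, caudal-half cells and yolk sac and was not called. Efnb2 (an arterial ligand), Nr2f2 (a venous factor), Cxcr4 (a chemokine receptor) and Runx1 (the factor of blood emergence) were not called in any comparison either. Prox1, the lymphatic regulator and Sox18 target, was higher in heart tube cells, where Sox18 was lowest: it read 7.99 and 7.81 there, 6.74 and 5.08 in caudal-half cells and 5.38 and 4.73 in yolk sac cells. Its difference from the yolk sac was 2.84 (SE 0.52, limma adjusted p = 0.0182) and was lost without either heart tube array or yolk sac replicate 2, and its difference from the caudal-half cells was 1.99 (adjusted p = 0.0923). Prox1 is also made by heart muscle cells, whose genes were higher in these arrays, and their part in its level was not tested. Hey1, a Notch-responsive repressor, read 10.41 and 10.85 in heart tube cells, 11.08 and 11.54 in caudal-half cells and 9.56 and 9.60 in yolk sac cells. It was higher in caudal-half cells than in yolk sac cells by 1.72 (limma adjusted p = 0.00864). Hey1 was also called higher in heart tube cells than in yolk sac cells, with differences of 0.82 to 1.27 when 1 array was left out. That Hey1 call was lost without any 1 of the heart tube or yolk sac arrays. With Prox1 and Hey1, Unc5b was the third gene of the list called higher in that comparison. Its means were 10.37 in heart tube, 10.07 in caudal-half and 9.67 in yolk sac cells. The Unc5b call was lost after quantile normalization (0.69, limma adjusted p = 0.0535). It was also lost in the fit of heart tube and yolk sac alone (0.70, limma adjusted p = 0.0735). The replicate block (limma adjusted p = 0.0562) and averaging a gene's probe sets (0.69, limma adjusted p = 0.116) removed the Unc5b call too. So did leaving out any 1 of the 6 arrays. Vcam1, an adhesion molecule, was lowest in caudal-half cells (3.72 and 3.46) and highest in yolk sac cells (5.84 and 5.63), with 4.49 and 4.67 in heart tube cells. Its caudal-half readings lay within the bacterial range of 1.33 to 4.03. Vcam1 was the 1 gene of the list called higher in heart tube cells than in caudal-half cells. That Vcam1 call was lost with the replicate block (limma adjusted p = 0.0602) and without any 1 of the heart tube or caudal-half arrays. No size is given for it.

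**Figure D3:**
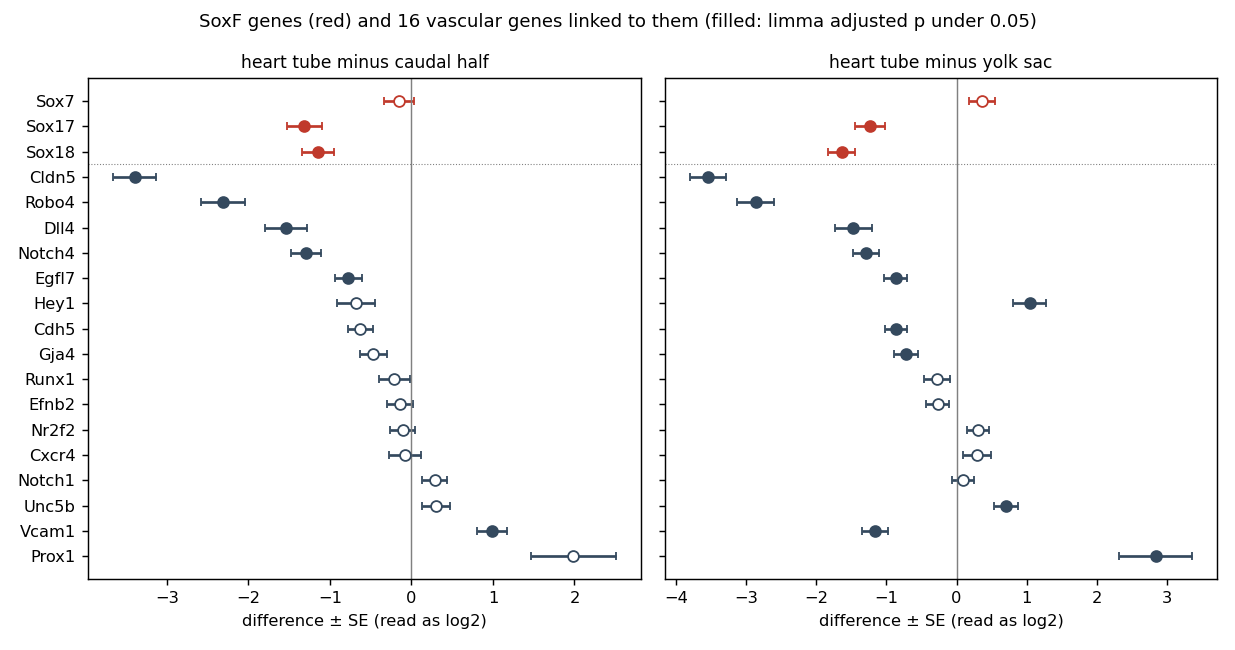
Difference in level (read as log2, horizontal axis) of the 3 SoxF genes and the 16 vascular genes linked to them, in heart tube cells against each other tissue; bars are the standard error and filled points passed the limma threshold. Cldn5 (-3.40 and -3.54) and Robo4 (-2.31 and -2.87) lie furthest to the left and Prox1 (1.99 and 2.84) furthest to the right.

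HMG-box factors of the Sox family bind the core ACAAT or ACAAAG, and the DNA before the transcription start of 4 of these genes is shown because they had the largest differences among the genes called lower in heart tube cells against both tissues and have a single start in the promoter table. Each line is the 250 bases before the start, from RefSeq on GRCm38.p6, plus strand, with matches to ACAAT or ACAAAG on either strand in capitals (ATTGT is ACAAT read on the minus strand). They lie at chr2:119325534-119325783 (Dll4), chr17:34564045-34564294 (Notch4), chr16:18776597-18776846 (Cldn5) and chr9:37401722-37401971 (Robo4).
Dll4: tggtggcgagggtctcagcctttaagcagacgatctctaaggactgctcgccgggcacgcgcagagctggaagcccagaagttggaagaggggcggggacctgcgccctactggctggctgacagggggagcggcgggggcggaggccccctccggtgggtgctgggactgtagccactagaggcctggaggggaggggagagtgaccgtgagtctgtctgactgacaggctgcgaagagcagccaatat
Notch4: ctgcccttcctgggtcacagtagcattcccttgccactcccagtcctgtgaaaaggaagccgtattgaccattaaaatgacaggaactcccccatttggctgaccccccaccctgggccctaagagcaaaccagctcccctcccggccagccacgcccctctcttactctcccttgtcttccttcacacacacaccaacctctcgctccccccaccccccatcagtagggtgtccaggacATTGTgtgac
Cldn5: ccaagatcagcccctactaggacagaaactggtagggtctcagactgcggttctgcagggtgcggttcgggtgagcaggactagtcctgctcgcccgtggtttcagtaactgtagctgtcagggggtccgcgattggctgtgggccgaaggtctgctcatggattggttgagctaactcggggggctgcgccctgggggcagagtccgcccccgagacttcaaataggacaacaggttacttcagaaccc
Robo4: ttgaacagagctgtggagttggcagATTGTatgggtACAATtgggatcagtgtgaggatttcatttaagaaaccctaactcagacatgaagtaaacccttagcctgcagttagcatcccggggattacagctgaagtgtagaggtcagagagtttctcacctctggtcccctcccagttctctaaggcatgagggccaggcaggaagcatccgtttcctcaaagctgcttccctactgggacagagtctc
Robo4 has 2 matches near the far end of its window, 1 on each strand, Notch4 has 1 close to its start, and Dll4 and Cldn5 have 0. Of the 17 promoters found for 13 of the 16 genes, 3 (17.6%) held ACAAT and 2 (11.8%) held ACAAAG on either strand. Of all 32851 promoters of the same length, 27.7% held ACAAT and 16.5% held ACAAAG. These letters are common in such windows, and a match describes the sequence only.

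Genes linked to SoxF factors in endoderm were described because Sox7 and Sox17 also act there. Of 17 genes, 16 were measured. Of all genes, 2.86% were called higher in heart tube cells than in caudal-half cells, and 5.14% higher and 6.67% lower than in yolk sac cells. Between caudal-half and yolk sac cells, 4.22% were called higher and 4.86% lower in caudal-half cells. Foxa1, Foxa2, Foxa3, Cer1, Eomes and Gsc, which mark or specify endoderm, were within the bacterial range in each tissue. Gata4 and Gata6, zinc-finger factors of heart and endoderm, were called higher in heart tube cells than in caudal-half cells (5.82 and 2.66) and than in yolk sac cells (4.90 and 1.498). Gata4 read 4.56 and 3.99 in caudal-half cells, the latter within the bacterial range, so the size of 5.82 is uncertain. The Gata6 call against the yolk sac was lost without either heart tube array. Against the yolk sac 4 genes were called lower, led by Dab2, an endocytic adaptor of visceral endoderm (-2.09, limma adjusted p = 0.000661), followed by the matrix genes Sparc (-0.93), Col4a2 (-0.89) and Col4a1 (-0.77), and Lamb1, a laminin chain, was called higher (1.12). The calls of Sparc and Col4a2 were lost without any 1 of the heart tube or yolk sac arrays, that of Col4a1 without any 1 of the 6 arrays and that of Lamb1 without either heart tube array or yolk sac replicate 1. Between caudal-half and yolk sac cells, Dab2 and Gata6 were called higher in yolk sac cells and Lamb1 lower, beside 14 of 15 visceral endoderm genes called higher there than in either other tissue. The Gata6 call was lost without any 1 array other than yolk sac replicate 1, and the Lamb1 call without either caudal-half array or yolk sac replicate 1. The part of visceral endoderm in these levels was not tested.

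Other Sox genes were called in both directions. Of the 16 other Sox genes measured, 3 were called higher and 1 lower in heart tube cells than in caudal-half cells. Of all genes, 2.86% were called higher and 2.65% lower there. Against yolk sac cells 6 were called higher and 1 lower, beside 5.14% and 6.67% of all genes. The SoxE factor Sox9, a regulator of cushion mesenchyme and cartilage, read 10.53 and 10.35 in heart tube cells, 6.02 and 6.14 in caudal-half cells and 5.96 and 5.47 in yolk sac cells. Its heart tube arrays stood apart, at differences of 4.36 (limma adjusted p = 0.000350) and 4.73 (adjusted p = 0.000146). The SoxD factors Sox5 and Sox6, which lack an activation domain, were also higher in heart tube cells than in both tissues (Sox5 by 2.70 and 3.13, Sox6 by 2.56 and 2.20). Of the SoxC factors, Sox4 and Sox11 were higher in heart tube cells (2.68 and 1.40) and in caudal-half cells (2.08 and 1.39) than in yolk sac cells, and Sox12 was higher in heart tube cells than in yolk sac cells (0.75, limma adjusted p = 0.0413, lost without any 1 of the 6 arrays). Sox2, of the SoxB1 group of pluripotent and neural cells, read 1.80 and 1.48 in heart tube cells, 6.96 and 7.05 in caudal-half cells and 3.90 and 2.91 in yolk sac cells. Only the caudal-half arrays were above the bacterial range, so no size is given for its call against the caudal-half cells, and its call as lower than in the yolk sac, the 1 in that count, compares readings that both lie within the range. Of the 16 genes, 6 had a mean inside the bacterial range in heart tube cells, 3 in caudal-half cells and 5 in yolk sac cells.

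**Figure D4:**
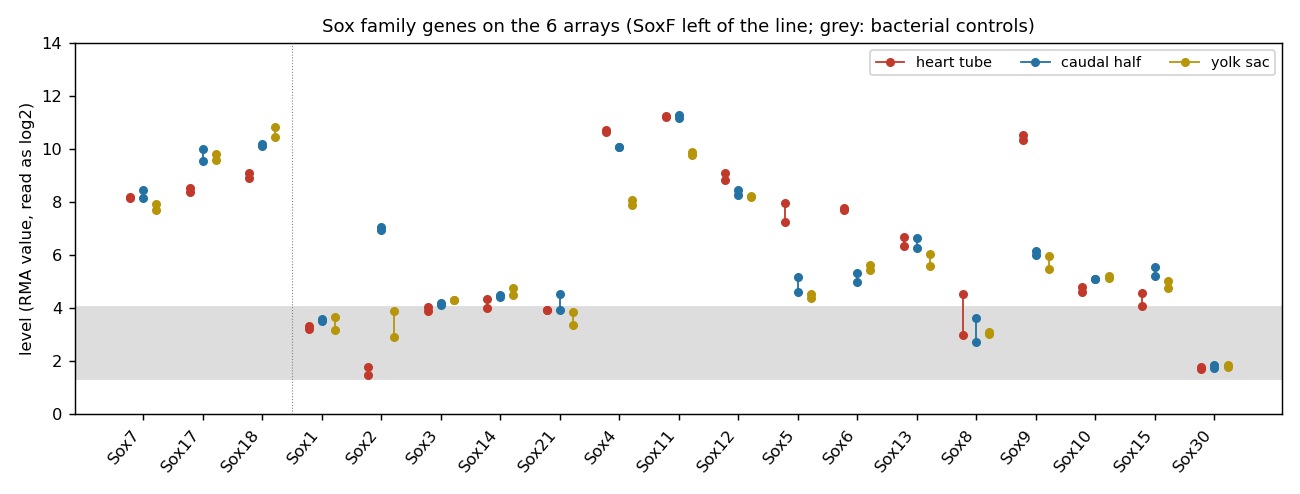
Level of the 3 SoxF genes and the 16 other Sox genes (1 probe set per gene, RMA value read as log2) in the 6 arrays; the shaded band is the range of the bacterial controls, 1.33 to 4.03. Levels are to be compared across tissues within a gene: Sox17 and Sox18 are lowest in heart tube cells, and Sox9, Sox5 and Sox6 are highest there.

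The genes nearest to each member in pattern were found from the 6 array values, each gene centred on its own mean, by the root mean square (rms) difference among 12647 genes whose mean was above the bacterial controls. The genes were picked by their likeness to a member on the same arrays that give their differences and calls. Those differences and calls therefore follow from the choice, and the likeness is a description. Nearest to Sox18 was Cav1, the main protein of caveolae, at an rms difference of 0.0867 (r = 0.993 over 6 arrays), followed by Ctla2b (0.0991), the immediate early factor Fos (0.0995), Atxn1 (0.102) and the lysophosphatidic acid receptor Lpar6 (0.102). Within 0.2 of Sox18 lay 34 genes. Between heart tube and yolk sac these 5 genes had differences of -1.68, -1.80, -1.71, -1.45 and -1.63 in that order, beside -1.64 for Sox18.

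Nearest to Sox17 was Spry4, an inhibitor of receptor tyrosine kinase signalling, at 0.100 (r = 0.990), followed by the kinase Tnk2 (0.122), Vsig2 (0.155), the RNA-binding ubiquitin ligase Trim71 (0.157) and the cell cycle repressor E2f8 (0.159). Between heart tube and caudal-half cells their differences were -1.504, -1.26, -1.21, -1.36 and -1.52, beside -1.31 for Sox17, and 18 genes lay within 0.2. Sox7 varied least, with an SD of 0.26 over the 6 arrays against 0.68 for Sox17 and 0.76 for Sox18, and 1408 genes lay within 0.2 of it. Its nearest genes were the RNA helicase Ddx1 (0.0373, r = 0.992), the splicing factor Prpf8 (0.0515), the bromodomain protein Brd7 (0.0518), the cyclin Ccnh (0.0527) and the mitotic kinase Nek6 (0.0592), and none of these 5 was called in any comparison. The nearest 5 genes of the 3 members did not overlap.

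**Figure D5:**
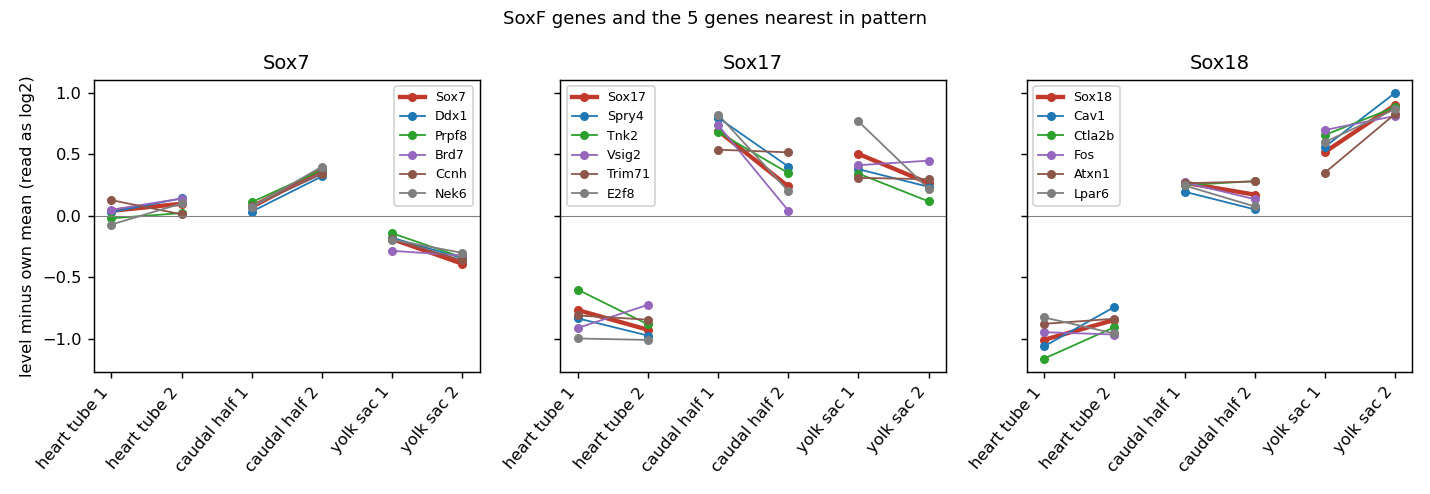
Levels of Sox7, Sox17 and Sox18 and of the 5 genes nearest to each in pattern, over the 6 arrays, each gene minus its own mean. The lines of Sox18 and Cav1 and of Sox17 and Spry4 dip at the heart tube arrays, while those of Sox7 and Ddx1 stay within a narrow band.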

How the data were processed

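The authors deposited 1 signal (an intensity) per probe set. RMA and affy are the tools that the submitters' processing notes list, without versions, and neither a chip definition nor a genome build was found in the labels. RMA corrects background, brings the arrays to 1 distribution and summarises probes. Levels are the natural log of this signal, taken as the authors' log2 value. Of 45101 probe sets, 34945 carried 1 symbol and were no control, 932 carried several and 9211 none. A gene took its probe set with the highest mean, which gave 18193 genes. The 3 tissue means were modelled by limma (version 3.58.1, R 4.3.3; lmFit, eBayes, no covariate, 3 residual degrees of freedom) with two-sided tests, and the probe sets had a fit of their own. Only 2 arrays per tissue limit the precision, with a median standard error of 0.210 for a difference.

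Members and lists were chosen with earlier results of these data known. Named were each member with all its probe sets, up to 4 called genes per list and comparison by size, further list genes that are receptors, partners or defining markers, the 3 genes of the sort and the 5 nearest genes of each member. Egfl7 and the other called genes beyond this rule were named after their values were seen. The replicate numbers did not pair the arrays: deviations of arrays with the same number correlated at -0.00681 to 0.0468. Promoter sequences are RefSeq's on GRCm38.p6. Scripts were tested on simulated data.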

Additional observations from a re-analysis of the deposited data

How the results depend on the processing

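Quantile normalization, a filter on dim genes, a trended robust prior, fits of 2 tissues alone, the log2 scale and the replicate block changed no call of the 3 genes; with the block, Sox17 and Sox18 differed between heart tube and caudal-half cells at adjusted p = 0.0222 and 0.0413. Sox18 in heart tube minus yolk sac was called in 16 of 16 alternatives.

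Differences below are heart tube minus caudal-half (HC), heart tube minus yolk sac (HY) and caudal-half minus yolk sac (CY); the references Pecam1 and Cdh5 and the other probe set were added after seeing the data. Sox7 HC turned positive with the mean of both probe sets (0.025), the other probe set (0.20) and the endothelial list (0.50), Pecam1 (0.25) or Cdh5 (0.47) as reference. With the list, Sox17 HC (-0.66), Sox18 HC (-0.50) and Sox17 HY (-0.23) lost their calls, and Sox7 HY (1.37) and CY (0.87) gained one. With Pecam1, Sox17 HC (-0.91), Sox18 HC (-0.75) and Sox17 HY (-0.83) lost theirs. With Cdh5, Sox18 HC (-0.52) and Sox17 HY (-0.36) lost theirs, and Sox7 HY (1.23) and CY (0.75) gained one. The median HY difference of all genes was then 0.81. Of all genes, Cdh5 as reference called 37.8% in HC, 71.8% in HY and 13.8% in CY, in either direction. Pecam1 called 8.66%, 15.4% and 7.58%. The other Sox17 probe set lost HC (-0.89) and HY (-0.55). A reference shifts every gene of an array alike, which moved the values above; for the other probe sets the cause was not tested. The second Sox7 probe set gained calls with the list (0.86 HC, 1.67 HY, 0.81 CY), Pecam1 (1.06 HY) and Cdh5 (0.83 HC, 1.53 HY), and the second Sox17 probe set turned positive in HY with the list (0.45) and Cdh5 (0.32).

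Leaving out 1 array at a time gave, for HC, HY and CY in turn, Sox7 -0.30 to -0.00288, 0.26 to 0.46 and 0.36 to 0.66. Sox17 gave -1.54 to -1.09, -1.35 to -1.11 and -0.15 to 0.31, where CY reversed without caudal-half replicate 1 (-0.15) or yolk sac replicate 2 (-0.04). Sox18 gave -1.23 to -1.07, -1.83 to -1.45 and -0.68 to -0.30. The second probe sets gave -1.15 to -0.62, -0.82 to -0.29 and 0.17 to 0.50 for Sox17, and -0.017 to 0.42, 0.59 to 0.72 and 0.23 to 0.67 for Sox7, whose HC reversed to -0.017 without caudal-half replicate 1. A tissue then had 1 array, assumed to vary like the others. The references and the other probe set were not applied to the genes of the lists. Of 1700 values of called list genes under the remaining alternatives, 230 lost the call and 0 changed sign. The endothelial list as reference shifts each HY difference by 1.01, so negative differences smaller than that would change sign with it. Over all genes, leaving out 1 array gave 208 to 493 higher and 168 to 406 lower calls for HC (520 and 482 with all arrays), 387 to 764 and 549 to 1030 for HY (936 and 1214), and 222 to 475 and 416 to 680 for CY (767 and 885). For CY higher, the trended prior called 1214 and the fit of 2 tissues 475.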
